A study of Mus musculus with 108 samples.

Results

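The genes of 7 protein disulfide isomerases (Pdia2, Pdia3, Pdia4, Pdia5, Pdia6, P4hb and Txndc5) and of 1 endoplasmic reticulum (ER) oxidase (Ero1lb, now also called Ero1b) were described in single acinar cells of the mouse pancreas. They were taken by symbol from the deposited expression table, where all 8 had a row among 45195 gene rows. Acinar cells, the cells of the exocrine pancreas that make and secrete digestive enzymes, were isolated from untreated male C57BL/6 mice aged 12 weeks by collagenase digestion, straining to remove islets and Accutase treatment. Every sample was 1 cell, all in 1 group that carried no allele or agent, and cDNA was made by a modified SMART-seq2 procedure. The labels named no animal, day or plate. The whole group therefore stands for 1 sample. SDs and correlations describe its cells and carry no p-value, because cells are not replicates.

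Proteins that enter the ER for secretion form disulfide bonds between cysteines as they fold. Protein disulfide isomerases make these bonds and rearrange wrong ones with thioredoxin-like active sites, and ER oxidases of the Ero1 family re-oxidise them with molecular oxygen. Digestive enzymes and their precursors are rich in disulfide bonds, and the acinar cell has an extensive ER. When unfolded proteins build up there, the unfolded protein response raises transcription of many chaperone genes, in part through a promoter sequence known as the ER stress response element (ERSE).

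Values are TPM, a cell's transcripts per 1000000 after correction for their length, so levels of different genes can be set side by side. TPM hold no read depth, and the precision of a single cell's value is unknown. A gene was counted as detected at or above 1 TPM. The deposited TPM of 21 cells, all numbered 92 or higher, added up to between 788380 and 990520 where 1000000 is the nominal total. They are referred to as short-total, and the remaining 87 as full-total cells. The latter comprised 47 cells numbered up to 48 and 40 numbered 49 to 91. SDs below are over all cells, that is 87 full-total plus 21 short-total cells, unless a set is named. The bound at 48 had been chosen in earlier work after values were seen. A median of 3939 genes was detected in short-total and 4224 in full-total cells. Of 10 acinar markers, 9 were detected in every cell, so the defining markers of the labelled cell type were present. Lymphocyte, adipocyte and mesothelial markers reached 1 TPM in no cell, endocrine markers numbered at most 2 of 12 in a cell, and 6 of 8 endothelial markers were detected in cell 40, which had 6946 genes detected, the most of any cell. Of 10 ductal markers, 9 were detected in at least 1 cell, 1 of them in every cell, and at most 7 in the same cell. Their summed level had a median of 31.2 TPM and reached 385.8 TPM. Stellate markers numbered at most 4 of 9 in a cell.

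The promoter letters of the members were read first, because the members differ in their copies of the ERSE. The motif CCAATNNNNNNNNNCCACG was searched on both strands from 250 bases before to 50 bases after each RefSeq start site (build GRCm38.p6). All 8 members matched an entry, Txndc5 with 3 windows. The full motif lay in 39 of 32851 windows (0.119%), among them those of 2 members, Pdia6 and Ero1lb. The elements are written in the direction from CCAAT to CCACG, with the motif's fixed letters in capitals, and that of Hspa5 is shown for comparison, since it codes for BiP, the main ER chaperone. Pdia6's element (chr12:17266491-17266509) lay 98 to 80 bases before the start site on the gene's strand, Ero1lb's (chr13:12565682-12565700) 201 to 183 bases before it on the opposite strand, and that of Hspa5 (chr2:34772025-34772043) 65 to 47 bases before it.
Pdia6: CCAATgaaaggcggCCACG
Ero1lb: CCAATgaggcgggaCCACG
Hspa5: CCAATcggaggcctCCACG

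Pdia3 and Pdia4 each held the motif with 1 of its 10 fixed letters changed, and in both it was the last letter. Positions are counted from 1 at the first C of CCAAT, and the motif's letter comes first. The change was G19A in Pdia3 (chr2:121413873-121413891, 29 to 11 bases before the RefSeq start site but inside the gene's span in GENCODE, which begins farther upstream) and G19T in Pdia4 (chr6:47813602-47813620, on the opposite strand, ending 90 bases before it). Windows with such a sequence 1 letter off numbered 461 (1.40% of all), and Pdia2 was the other member with one, T5G, across its start site.
Pdia3: CCAATcggcggctgCCACA
Pdia4: CCAATcacgggctgCCACT

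P4hb, Txndc5 and Pdia5 had neither the motif nor a copy 1 letter off in these windows. A second motif of the response, ERSE-II (ATTGGNCCACG), was in 12 windows (0.0365%) and in none of the members'. The core TGACGTG of another, the UPRE, was in 661 windows (2.01%), 1 of the 3 of Txndc5 among them. The wider stretches of Pdia6 (chr12:17266339-17266544, plus strand), Ero1lb (chr13:12565633-12565873, plus strand) and Pdia4 (chr6:47813513-47813762, minus strand) follow, to show where the motif sits. They run 5′ to 3′ along the gene's strand and carry in capitals the letters that match the motif on either strand. Those of Pdia6 and Ero1lb stop where an annotated exon begins. That of Pdia4 stops at the RefSeq start site, which lies upstream of the gene's span in GENCODE. A match of letters is a description of the sequence, and binding was not measured.
Pdia6: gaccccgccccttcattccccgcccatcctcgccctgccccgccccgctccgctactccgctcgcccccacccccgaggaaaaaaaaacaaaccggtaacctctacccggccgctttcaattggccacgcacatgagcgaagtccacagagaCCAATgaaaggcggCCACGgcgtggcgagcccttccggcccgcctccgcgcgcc
Ero1lb: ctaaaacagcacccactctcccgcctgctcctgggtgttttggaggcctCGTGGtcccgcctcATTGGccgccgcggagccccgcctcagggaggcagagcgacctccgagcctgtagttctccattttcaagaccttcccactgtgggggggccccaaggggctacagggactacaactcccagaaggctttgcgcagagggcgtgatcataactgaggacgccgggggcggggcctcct
Pdia4: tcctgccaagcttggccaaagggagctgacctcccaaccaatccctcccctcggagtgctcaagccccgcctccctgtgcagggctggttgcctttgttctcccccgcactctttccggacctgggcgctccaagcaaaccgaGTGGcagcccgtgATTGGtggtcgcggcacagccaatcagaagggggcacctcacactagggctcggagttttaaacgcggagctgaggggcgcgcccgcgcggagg

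Pdia2, an isomerase known for its strong expression in the pancreas, was by far the most abundant member. Its level was 548.4 TPM in the lowest cell, 924.7 TPM at the median and 1387 TPM in the highest cell (8), with a mean of 929.6 ± 163 TPM (SD over all cells). The lowest cell was the short-total cell with the lowest total (788380) and the fewest genes detected (2624). Among full-total cells the lowest value was 594.6 TPM. Pdia2 made up 78.5% ± 3.79 of the members' summed TPM (SD over all cells), from 67.7% in cell 85 to 89.1% in a short-total cell. The 8 members together summed to 1184 ± 200 TPM, from 722.9 in the cell lowest for Pdia2 to 1768 in cell 8, or 0.120% of a cell's total on average. As a share of the cell's total the members were lowest in cell 84, at 0.0817%. No other member came near Pdia2 in any cell. The gene (ENSMUSG00000024184) spans chr17:26195999-26199087 on the minus strand.

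P4hb, which codes for the founding member of the isomerase family and is also a subunit of prolyl 4-hydroxylase and of the microsomal triglyceride transfer protein, came next. Its level ran from 56.1 TPM in cell 84 through a median of 144.0 to 255.2 TPM in cell 70, with a mean of 146.3 ± 35.8 TPM (SD over all cells). The ratio of Pdia2 to P4hb averaged 6.62 ± 1.58 (SD over all cells), and ranged from 3.58 in cell 39 to 12.4 in cell 84. P4hb (ENSMUSG00000025130) spans chr11:120560298-120573253 on the minus strand.

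Pdia6, an isomerase that works with BiP, and Ero1lb, the Ero1 oxidase typical of secretory cells of the pancreas, had similar levels. Pdia6 (ENSMUSG00000020571, chr12:17266545-17284770, plus strand) ran from 15.1 TPM in a short-total cell through a median of 36.6 to 69.4 TPM in cell 1, with a mean of 38.2 ± 11.2 TPM (SD over all cells). Ero1lb (ENSMUSG00000057069, chr13:12565874-12611396, plus strand) ran from 10.9 TPM in cell 84 through a median of 35.5 to 64.4 TPM in cell 70, with a mean of 35.1 ± 10.1 TPM (SD over all cells). Pdia6 was the higher in 70 cells and Ero1lb in 38, so this pair did not differ in level beyond its spread.

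A lower tier held Pdia3, Pdia4 and Txndc5. Pdia3 (ENSMUSG00000027248, chr2:121413775-121438687, plus strand) codes for ERp57, which folds glycoproteins together with calnexin and calreticulin. It ran from 3.40 TPM in cell 95 through a median of 14.8 to 39.1 TPM in cell 85, with a mean of 16.6 ± 8.45 TPM (SD over all cells). Pdia4 (ENSMUSG00000025823, chr6:47796141-47813430, minus strand) codes for ERp72, an isomerase found in chaperone complexes with BiP and GRP94. It was listed at 0 in 1 short-total cell, had a median of 8.87 TPM and reached 32.3 TPM in cell 39, with a mean of 10.6 ± 7.22 TPM (SD over all cells). Txndc5 (ENSMUSG00000038991, chr13:38500079-38528824, minus strand) codes for ERp46, an isomerase with several thioredoxin-like domains. It ran from 1.13 TPM in cell 26 through a median of 7.14 to 17.2 TPM in a short-total cell, with a mean of 7.43 ± 3.10 TPM (SD over all cells).

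Within this tier Pdia3 exceeded Pdia4 in 98 cells and was below it in 10, while Pdia4 exceeded Txndc5 in 68 and was below it in 40. The abundant Ero1lb and the less abundant Pdia3 were in the opposite order in 6 cells. Pdia2 exceeded P4hb, and P4hb every other member, in every cell. The complete order of the 8 means held in 32 cells. Taken as 5 tiers, with Pdia6 and Ero1lb in one tier and Pdia3, Pdia4 and Txndc5 in another, it held in all but 7 cells. The tiers join neighbours that often changed places in these same cells, so this higher agreement follows in part from how they were drawn.

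Pdia5, a less studied isomerase (ENSMUSG00000022844, chr16:35397312-35490873, minus strand), was at the edge of detection. It reached 1 TPM in 21 cells (19.4% of all, exact 95% binomial interval 12.5% to 28.2%) and was listed at 0 in 32. That interval covers only the error of counting cells as if they were independent, and no spread across animals. The median of Pdia5 was 0.43 TPM and its highest value 4.96 TPM, in the short-total cell that was also highest for Txndc5. Detected cells numbered 18 of the 87 full-total and 3 of the 21 short-total cells.

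**Figure D1:**
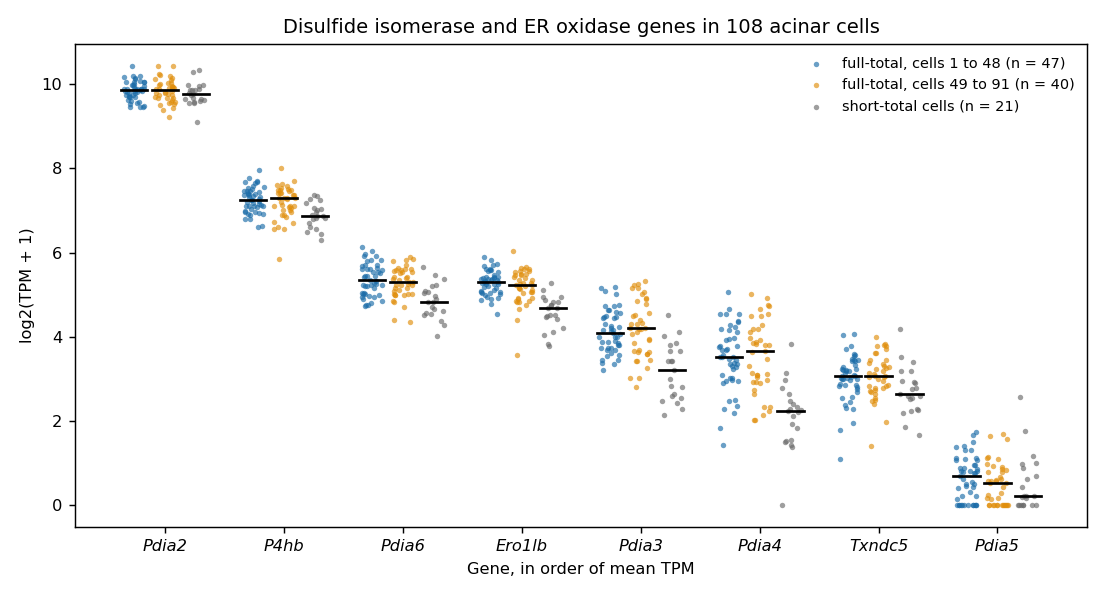
Level of each member in each cell, on the y axis as log2(TPM + 1), with genes on the x axis in order of mean TPM. Each point is a cell, colours mark the 3 sets of cells, and black bars are medians; Pdia2 lies above P4hb and P4hb above the rest in every cell, and the grey short-total cells lie farthest below the others for Pdia4, where their median is 3.68 TPM.

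Reads from overlapping genes on opposite strands cannot be told apart, since no source used here says that strand was kept. The opposite-strand neighbours that share bases with Pdia3 (Catsper2, 18 bases) and Pdia6 (Atp6v1c2, 50 bases) had means of 0.083 and 0.0036 TPM. Bmp6, which shares 224 bases with Txndc5, was listed at 0 in every cell. Gm31834, an antisense RNA that shares 1422 bases with Txndc5, and Gm47994, a pseudogene that shares 780, had no row in the expression data. Their part in the reads of Txndc5 could therefore not be examined.

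The members with the lower means were not uniformly the more variable. The coefficient of variation (CV, SD over mean) was 0.175 for Pdia2, 0.245 for P4hb, 0.287 for Ero1lb and 0.292 for Pdia6. It rose to 0.417 for Txndc5, 0.511 for Pdia3 and 0.682 for Pdia4, although Txndc5 was the least abundant of the last 3. Pdia5, with the lowest mean of all members, had the highest CV, at 1.23. Against a lowess trend of squared CV on mean TPM over 7227 genes detected in at least 10% of cells, Pdia4 stood at 2.37 times the trend and Pdia3 at 1.66. Pdia2, Ero1lb, Txndc5, Pdia6 and P4hb lay at 0.65 to 0.82 times the trend, and Pdia5 at 1.02. With a gene called variable at 2 times the trend or more, 1 of the 8 members (Pdia4) was called, beside 12.0% of all genes tested, a share near the background. Pdia4 stayed above that level in full-total cells alone (2.01 times) and lay at 1.35 times in short-total cells alone, where Pdia5 was the member called, at 2.48 times.

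Over all cells, most pairs of members were positively correlated, to a degree that depended on the cells and the scaling. The median Spearman correlation of log2(TPM + 1) over the 28 pairs was 0.40, and 25 pairs were above 0. The 7 members other than Pdia5 had a median of 0.47 over 21 pairs, all above 0. All pairs of genes tested had a median of 0.056, and all pairs of the 805 genes detected in every cell 0.15. Within cells 49 to 91 the median of the 28 pairs was 0.15, beside 0.091 for genes detected in every cell. On residuals from the number of genes detected it was 0.24, beside 0.064. Values within a cell share its library and its total, and several members followed the number of genes detected. Their correlation with that number was 0.68 for P4hb, 0.61 for Pdia6, 0.53 for Txndc5, 0.51 for Ero1lb and 0.49 for Pdia2, against 0.39 for Pdia4 and 0.37 for Pdia3.

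The closest pair was Pdia3 and Pdia4, with a Spearman correlation of 0.77 and a Pearson correlation of 0.80 over all cells. Cell 39 had 35.2 TPM of Pdia3 and 32.3 TPM of Pdia4, cell 83 had 34.7 and 31.5 TPM, and cell 85 had 39.1 and 29.2 TPM. At the other end, cell 95 had 3.40 and 1.81 TPM and the cell lowest for Pdia6 had 4.40 and 2.53 TPM, while the cell with Pdia4 listed at 0 had 4.54 TPM of Pdia3. The first 3 cells, all full-total, were high in both genes and the last 3, all short-total, low in both, so these examples also follow the split by total. Without the 2 cells farthest from the median of Pdia3 the Spearman correlation was 0.76. It was 0.72 in cells 1 to 48, 0.72 in cells 49 to 91, 0.75 in short-total cells, 0.74 after median-of-ratios scaling and 0.74 on residuals from the number of genes detected.

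P4hb and Pdia6 formed the next pair, at 0.68 (Pearson 0.68), followed by P4hb and Ero1lb at 0.61 (Pearson 0.68). P4hb and Pdia2 had 0.55 (Pearson 0.52). These values moved more with the scaling and the cells. After median-of-ratios scaling they were 0.48, 0.46 and 0.28, and in short-total cells 0.44, 0.51 and 0.25. The same scaling brought the median pair of genes detected in every cell to -0.0046 and the median pair of members to 0.18. Pdia4 and Txndc5 also had 0.55 over all cells, with 0.46 after median-of-ratios scaling and 0.74 in short-total cells. Pdia6 had 0.54 with Pdia4 and 0.50 with Pdia3, so the pairs do not fall into separate groups.

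Pdia2 did not follow Pdia3 or Pdia4. Its Spearman correlation with them was 0.09 and 0.04, and cell 85, highest for Pdia3, had 594.6 TPM of Pdia2, well under the median of 924.7. Among cells 49 to 91 these values were -0.15 and -0.21, in short-total cells 0.34 and 0.34, and after median-of-ratios scaling -0.26 and -0.33, so that the sign depended on the cells and the scaling. Ero1lb followed Pdia3 loosely over all cells, at 0.26. That pair had 0.74 within short-total cells and -0.19 within cells 49 to 91. Pairs with Pdia5 lay between -0.07 and 0.13.

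**Figure D2:**
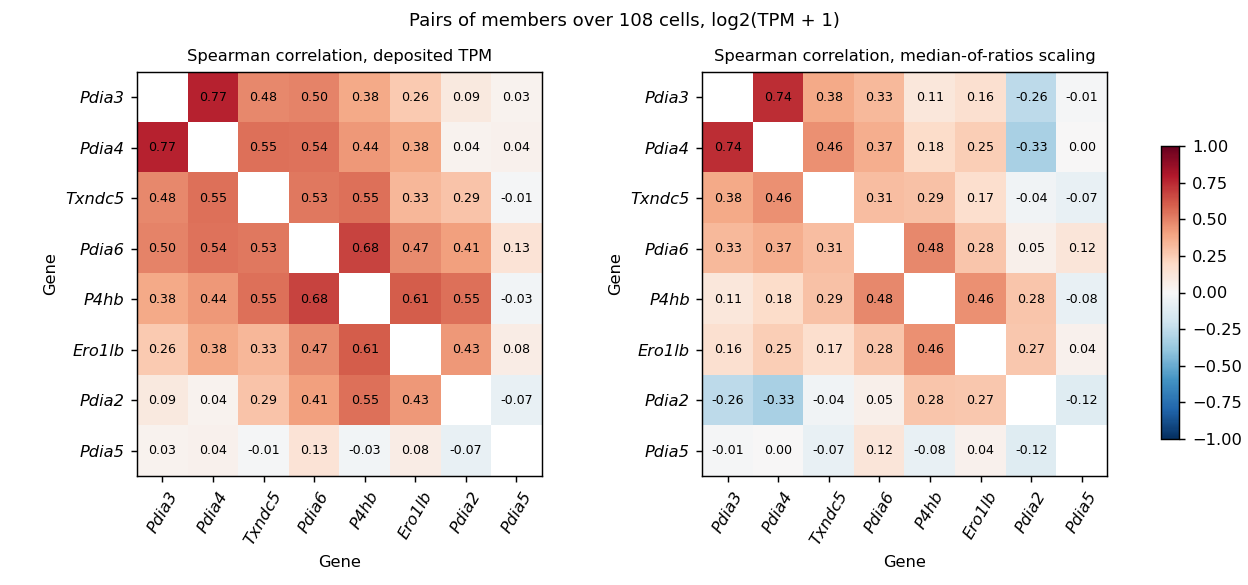
Spearman correlation of each pair of members over all cells, for log2(TPM + 1) on the deposited scale (left) and after median-of-ratios scaling (right); both axes list the 8 genes, and colour runs from -1 to 1. Pdia3 and Pdia4 kept 0.77 and 0.74, while P4hb and Pdia2 had 0.55 and 0.28 and the values of Pdia2 with Pdia3 and Pdia4 fell below 0 on the right.

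**Figure D3:**
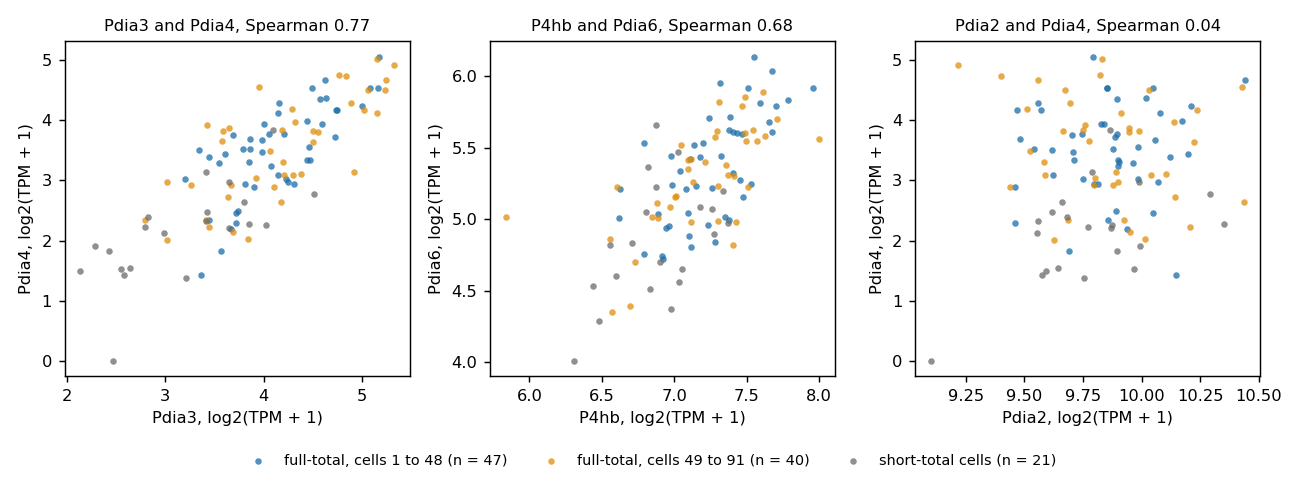
Levels of 3 pairs of members as log2(TPM + 1) on both axes, 1 point per cell, coloured by set of cells. Pdia3 and Pdia4 lie along a line in all 3 sets (0.77), P4hb and Pdia6 follow more loosely (0.68), and Pdia2 and Pdia4 show no common trend (0.04).

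The genes most like each member were taken as the 3 of highest Spearman correlation among 3730 genes detected in at least 50% of cells, over all cells. For Pdia3 these were Hspa5 (0.83), Pdia4 (0.77) and Hsp90b1 (0.75), and for Pdia4 they were Hsp90b1 (0.80), Hspa5 (0.80) and Pdia3 (0.77). Hspa5 codes for BiP and Hsp90b1 for GRP94, the HSP90 of the ER. Hspa5 ran from 24.6 to 312.9 TPM with a mean of 113.8 ± 63.4 TPM (SD over all cells). Its highest cell, 88, had 31.6 TPM of Pdia3 and 17.01 TPM of Pdia4, both above their medians. In short-total cells alone the correlation of Pdia3 with Hspa5 was 0.71, that of Pdia4 with Hsp90b1 0.56 and that of Pdia4 with Hspa5 0.43.

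P4hb, Txndc5 and Pdia6 had other closest genes. P4hb was most like Tram1 (0.73), Sec61a1 (0.69) and Rpn1 (0.69). The first pair belongs to the channel through which new proteins enter the ER, and Rpn1 to the complex that adds N-glycans there. Txndc5 was most like Dnajc3 (0.59), a co-chaperone of BiP, followed by Sec61a1 (0.57) and Rpn1 (0.57). Pdia6 was most like Nucb2 (0.68), which codes for a calcium-binding protein, then P4hb (0.68) and Dnajc3 (0.66). In short-total cells alone several of these values were lower. P4hb had 0.60 with Tram1, 0.35 with Sec61a1 and 0.29 with Rpn1, and Pdia6 had 0.69 with Nucb2, 0.44 with P4hb and 0.35 with Dnajc3. Txndc5 had 0.10 with Rpn1, but 0.81 with Dnajc3 and 0.68 with Sec61a1. The median correlation over all 3730 genes was 0.18 for P4hb, 0.16 for Txndc5 and 0.18 for Pdia6.

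Pdia2 was most like Edem2 (0.65), then P4hb (0.55) and Edem1 (0.53). Edem1 and Edem2 act on the mannose-rich glycans of misfolded glycoproteins bound for degradation. In short-total cells alone the correlations with Edem2 and Edem1 were 0.37 and 0.24. Ero1lb was most like Slc7a1 (0.63), a transporter of cationic amino acids, Gm43305 (0.63), a predicted gene, and Asns (0.62), asparagine synthetase. In full-total cells alone these were 0.43, 0.52 and 0.49, and in short-total cells alone 0.54, 0.17 and 0.54. Pdia5 had no close counterpart, with Paip2 at 0.40, Ik at 0.34 and Tex261 at 0.34, beside a median of 0.034 over all genes.

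For the mean z-score of the 8 members, the 10 most alike genes outside the list were Dnajc3 (0.77), Rpn1 (0.77), Serp1 (0.76), Sec61a1 (0.75), Tram1 (0.73), Arf4 (0.73), Ssr3 (0.71), Vcp (0.71), Ssr1 (0.70) and Arcn1 (0.70), beside a median of 0.21. Serp1, Ssr1, Ssr3, Sec61a1 and Tram1 code for proteins at the ER translocation channel, Arf4 and Arcn1 for parts of the vesicle coat machinery, and Vcp for an ATPase of ER-associated degradation. Hspa5 and Hsp90b1 stood at 0.70 and 0.68. The lowest were 2210010C04Rik (-0.35), a trypsinogen-like gene, Eef1akmt1 (-0.29), Clps, colipase (-0.27), Ctrb1, chymotrypsinogen (-0.27), and Casp9 (-0.23). These lowest genes depended on the scaling and the cells. Of the 5, 0 were found again by median of ratios and 1 in full-total cells alone. After each cell was rescaled to the same total, 4 were found again. Scaling without the digestive enzymes also gave 0 of the 5. It cannot decide their stability, since 2210010C04Rik, Clps and Ctrb1 are on the list of enzymes left out.

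Across the gene lists, ER chaperones set Pdia3 and Pdia4 apart from Pdia2. The median Spearman correlation with the 16 chaperones and co-chaperones tested was 0.60 for Pdia3 and 0.62 for Pdia4, between 0.31 and 0.44 for Ero1lb, P4hb, Txndc5 and Pdia6, 0.16 for Pdia2 and 0.03 for Pdia5. Over all 7227 genes the medians lay between 0.03 and 0.14. These medians are over all cells, short-total and full-total together. P4hb with Hspa5 had 0.44 over all cells, 0.26 in full-total cells, 0.10 in cells 49 to 91 and 0.53 in short-total cells. Pdia3 with Hspa5 had 0.83, 0.79, 0.82 and 0.71 in the same order. Creld2, a cysteine-rich ER protein, had 0.72 with Pdia3 and 0.77 with Pdia4 but 0.06 with Pdia2. Ppib, the ER cyclophilin, had the opposite tendency, with 0.47 for Pdia2 and 0.32 for Pdia3. The difference between members was not tested, since all values come from the same cells of 1 sample.

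**Figure D4:**
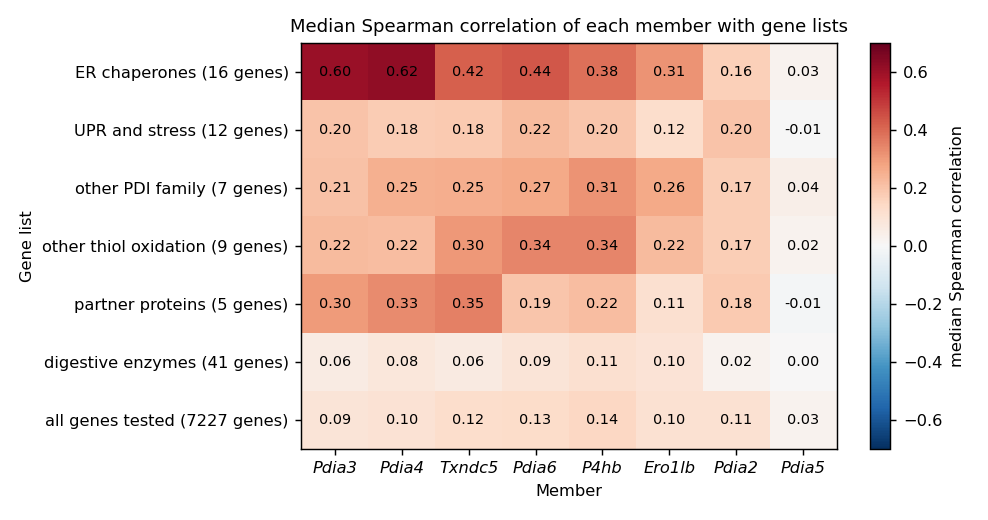
Median Spearman correlation over all cells of each member (x axis) with the tested genes of each list (y axis), as a colour and a number. The ER chaperone row holds the highest values, 0.60 for Pdia3 and 0.62 for Pdia4, while the row of digestive enzymes lies between 0.00 and 0.11.

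The most abundant chaperone transcripts had levels like P4hb and below Pdia2. Ppib had a mean of 175.9 ± 34.8 TPM, Fkbp11, a prolyl isomerase of secretory cells, 134.1 ± 38.1 TPM and Hspa5 113.8 TPM (SD over all cells). Of the 16 tested, 4 were called variable (Hspa5 at 3.92 times the trend, Dnajb9 at 3.01, Creld2 at 2.55 and Hsp90b1 at 2.41), beside 12.0% of all genes tested. Hspa5, Creld2 and Hsp90b1 had 0.72 to 0.83 with Pdia3 and Pdia4, and Dnajb9, a BiP co-chaperone, had 0.69 with Pdia3 and 0.59 with Pdia4.

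Other genes of the isomerase family were much less abundant than Pdia2 and P4hb. Of 13 in the table, 7 passed the filter on low values and 3 were detected in every cell. Those 3 were Erp29 (13.1 ± 5.82 TPM, SD over all cells), Erp44 (10.4 ± 3.38 TPM), which retains client proteins and Ero1 in the early secretory pathway, and Txndc11 (8.66 ± 3.62 TPM). Pdilt, Tmx4 and Agr3 reached 1 TPM in no cell. None of the 7 was called variable. Erp44 was closest to Pdia6 (0.54) and Txndc11 to Ero1lb (0.51). Agr2, chosen after its values were seen, was listed at 0 in 97 cells and reached 58.5 TPM in cell 49.

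Among the thiol oxidation genes, Ero1lb stood far above its paralog. Ero1l, the broadly expressed Ero1 oxidase, had a mean of 0.57 ± 0.49 TPM and reached 1 TPM in 16 cells, while Ero1lb never fell below 10.9 TPM. Prdx4, a peroxiredoxin that uses hydrogen peroxide to oxidise isomerases, had 148.6 ± 31.9 TPM (SD over all cells), a level close to that of P4hb. Its Spearman correlation was 0.47 with P4hb and 0.47 with Pdia6. Selenof, a selenoprotein of ER quality control, had 39.7 ± 10.7 TPM and Vkorc1, the vitamin K epoxide reductase, 21.4 ± 8.95 TPM. Gpx7, an ER peroxidase, reached 1 TPM in no cell, and Gpx8, its relative, was the list's 1 variable gene of 9 tested (2.10 times the trend, 0.47 TPM), a share near the 12.0% of all genes.

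Among the 7 genes listed as partners of isomerases, which leave out the chaperones above such as Hspa5, calreticulin was the most abundant. Calr had 25.8 ± 11.2 TPM and Canx, calnexin, 8.74 ± 2.70 TPM (SD over all cells). Calr had a Spearman correlation of 0.65 with Pdia3 and Canx 0.37, while Canx had 0.51 with P4hb and with Pdia6. The other subunits of the complexes that contain P4hb were scarce. The prolyl 4-hydroxylase subunits P4ha1 and P4ha2 had means of 0.86 and 1.09 TPM, P4ha3 was listed at 0 in every cell, and Mttp, the triglyceride transfer subunit, had 0.13 TPM.

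Genes of the unfolded protein response had unequal correlations with the members. Herpud1, which takes part in ER-associated degradation, had 99.1 ± 57.4 TPM and a Spearman correlation of 0.55 with Pdia3, 0.48 with Pdia4 and 0.09 with Pdia2. Xbp1, a transcription factor of the response, had 59.7 ± 19.2 TPM and showed 0.41 with P4hb, 0.31 with Pdia2 and -0.05 with Pdia3. Spliced and unspliced Xbp1 cannot be told apart in gene-level TPM. Asns had 56.6 ± 16.9 TPM, with 0.65 for P4hb and 0.28 for Pdia3. Of 12 tested genes in this list 5 were called variable, beside 12.0% of all genes tested. Atf3 (26.9 times the trend), Chac1 (7.70) and Ddit3 (5.79), known to rise in stress, led them. Their correlations with the members lay between -0.17 and 0.31.

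The set of short-total cells was compared with the full-total cells because 1 technical property of the deposited values separated them. The difference is that of the medians of log2(TPM + 1), short-total minus full-total cells, and 0.5 or more in size was counted as past the threshold. On the deposited scale all 8 members were lower in short-total cells, although Pdia2 and P4hb were higher there when scaled without the digestive enzymes, as was Pdia2 by median of ratios. Pdia4, Pdia3 and Ero1lb were lower by 0.5 or more. That is 3 of 8 members, beside 10.3% of all genes tested, whose median difference was -0.15. After each cell was rescaled to 1000000 TPM it was again 3 of 8, beside 8.51%. No p-value was computed, since the sets are not replicated, and whatever else differs between them cannot be told apart from the total. The submitters' design text says that spike-in RNA was added to some cells without saying which.

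Pdia4 had a median of 3.68 TPM in short-total cells (0 to 13.2) and 10.5 TPM in full-total cells (1.70 to 32.3), a difference of -1.30. Of the 21 short-total cells, 20 lay below the full-total median. Pdia3 had medians of 8.24 TPM (3.40 to 21.8) and 16.8 TPM (5.95 to 39.1), a difference of -0.94, again with 20 of 21 below. The ranges of the sets overlapped for both genes, with 7 short-total cells below every full-total cell for Pdia3 and 2 for Pdia4. Ero1lb had medians of 24.6 TPM (12.8 to 37.5) and 37.7 TPM (10.9 to 64.4), a difference of -0.59. All 21 short-total cells lay below its full-total median.

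Smaller differences were found for Pdia6 (-0.49), Txndc5 (-0.43), P4hb (-0.40) and Pdia5 (-0.35). Pdia2 differed by -0.11, with medians of 871.7 and 939.2 TPM. Scaling decided the direction for the abundant members. Scaled without the digestive enzymes Pdia2 was at 0.28 and P4hb at 0.11, and by median of ratios Pdia2 was at 0.15 and P4hb at -0.05. Ero1lb came to -0.31 and -0.40, under the threshold. Pdia5 came to -0.86 and -0.30, so that it passed the threshold when scaled without the enzymes, and it was at -1.19 with a pseudocount of 0.1 and at -0.05 with means in place of medians. Pdia4 and Pdia3 remained past it in both, at -1.05 and -0.87 and at -1.08 and -0.71. Between cells 49 to 91 and cells 1 to 48 no member differed by more than 0.17 in size.

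Of the 16 chaperone genes tested, 8 were lower by 0.5 or more in short-total cells on the deposited scale and 8 after rescaling, beside 10.3% and 8.51% of all genes tested. Among them were Creld2 (-1.38), Hspa5 (-1.06) and Hsp90b1 (-0.96). Calr was at -0.81, Canx at -0.16, Prdx4 at -0.17 and Xbp1 at -0.01, and of the other isomerase family genes 3 of 7 were lower by 0.5 or more on the deposited scale but 1 of 7 after rescaling to 1000000, beside 10.3% and 8.51% of all genes tested. Of the 12 genes of the unfolded protein response and stress, 3 were lower by 0.5 or more on the deposited scale, among them Chac1 (-1.2) and Asns (-0.53). After rescaling 2 were. Another 2 were higher by 0.5 or more on the deposited scale, among them Atf3, with medians of 5.30 and 0.14 TPM. Of the 7227 genes tested, 741 were lower and 88 higher by 0.5 or more. Stellate and endothelial markers summed to a median of 0 TPM in both sets and acinar markers to 264369 and 274044 TPM. The lower number of genes detected in short-total cells moved with the split, and its part in the differences was not tested.

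**Figure D5:**
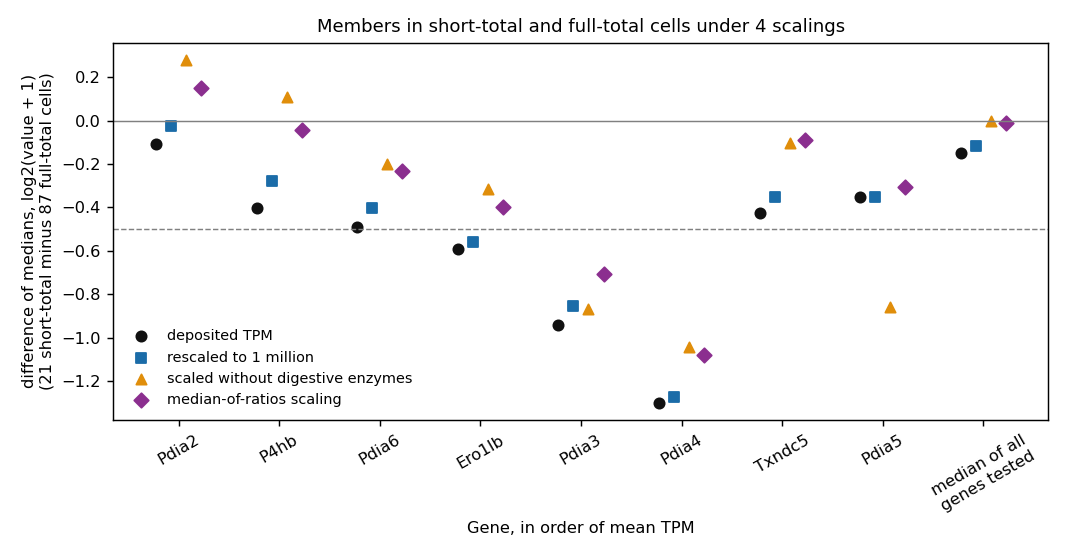
Difference of medians between 21 short-total and 87 full-total cells on the log2(value + 1) scale (y axis) for each member and for the median of all genes tested (x axis), with a symbol for each of 4 scalings; the dashed line marks -0.5. Pdia3 and Pdia4 lie below the line under every scaling, from -0.71 to -1.30, whereas Pdia2 changes sign between the scalings.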

How the data were processed

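Single-cell cDNA libraries of single acinar cells were measured, and the deposited table holds TPM per gene and cell, made by the authors and rounded to 2 decimals. The unit was read from the values. Per the submitters' processing notes, STAR 2.4.2a, RSEM 1.2.21, edgeR and mm10 were used, in roles not given in the sources used here. No UMIs were used, the reads per cell are unknown, doublets were not called and no cell was left out. Columns were matched to cells by cell number. Gene positions are 1-based spans from GENCODE on GRCm38 (mm10), and promoter sequences are from RefSeq.

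Values were analysed as log2(TPM + 1) with Python 3.11.15, pandas 2.3.3, scipy 1.17.1 and statsmodels 0.14.6 (lowess span 0.3). Genes detected at 1 TPM in at least 10% of cells were tested. With 1 group of 1 sample no test across samples was possible. Functions were tested on simulated data. The members and gene lists were chosen with earlier results of these data known. Named genes were all members, up to 3 of highest mean and 3 of highest squared CV over the trend in each list, the 3 most alike genes per member, the 10 highest and 5 lowest for the members' score, and a few named in advance, such as Hspa5, Hsp90b1, Calr, Canx, Xbp1, Ero1l and Prdx4. Median-of-ratios scaling used genes detected in every cell. Alternatives covered pseudocount, scaling, filters, sets of cells and thresholds.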

Additional observations from a re-analysis of the deposited data

How the results depend on the processing

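Of 287 alternative values, 223 stayed within their tolerance, 58 moved beyond it, and 6 crossed the threshold for a difference (4 to past it, 2 to under it). Some could not move, since a pseudocount leaves a Spearman correlation unchanged and the filter on low values leaves a member's own difference unchanged. For levels the tolerance was the SD over cells, so Pdia4 at 4.01 TPM in short-total cells (main 10.6) stayed within it. The tally is therefore no measure of how robust the results are. The summed level of the members was 10904 TPM (main 1184) after scaling without the digestive enzymes, since these fill most of each total. The median correlation of member pairs (0.40) was 0.18 after median-of-ratios scaling, 0.29 in full-total cells, 0.15 in cells 49 to 91 and 0.24 on residuals from the number of genes detected. The last 2 stood beside 0.091 and 0.064 for genes detected in every cell. At 3 times the trend 0 members were called variable, against 1 at 2 times. At a pseudocount of 0.1, 5 members were lower by 0.5 or more in short-total cells, as were 30.4% of genes tested. Of the 10 genes most like the members' score, 6 were found again after scaling without the enzymes and 7 after median-of-ratios scaling. Ero1lb fell under the difference threshold under both of these scalings. Without cells 31, 40 and 96, which earlier work had set apart by markers of other cells or of the cell cycle, the median correlation was 0.38 and the counts of members called were the same. The causes were not tested. No paired analysis was possible because all cells form 1 group. TPM hold no read depth, so a single cell's value near 1 TPM, such as those of Pdia5, cannot be given an error from the counting of reads.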
